A study of Homo sapiens with 6 samples.

Results

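The feedback target genes of Wnt and β-catenin signaling were examined in SW480 cells in which the transcription factor ZEB1 had been knocked down. The members were AXIN2, LGR5, ASCL2, NKD1, RNF43, ZNRF3, MYC, TCF7, LEF1 and SP5, taken by gene name from the deposited count tables, and all 10 were found among the 32029 genes listed there. SW480 is a human colorectal cancer cell line known to carry a truncated APC protein. The siControl group consisted of 3 cultures transfected with a control siRNA (siNC in the labels) and recorded as WT, and the siZEB1 group of 3 cultures transfected with an siRNA against ZEB1 and recorded as ZEB1 knockdown, with total RNA taken after 48 h. All 6 libraries therefore came from 1 cell line that had been through transfection, and the siRNA sequence and the number of siRNAs used are not given in the sources used here. Because these are bulk samples, fewer cells that express a gene and less RNA of that gene per cell cannot be told apart.

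In canonical Wnt signaling, a Wnt ligand bound to a Frizzled receptor and its LRP co-receptor stops the destruction complex, which otherwise marks β-catenin for degradation. Stabilised β-catenin enters the nucleus and joins TCF/LEF proteins on DNA to activate target genes. Many of these targets act back on the pathway, as scaffold of the destruction complex (AXIN2), as a Dishevelled-binding antagonist (NKD1), as ubiquitin ligases that remove Frizzled from the cell surface (RNF43 and ZNRF3) or as a receptor for R-spondins (LGR5). In colorectal tumors with truncated APC the complex works poorly, so that the targets are transcribed without ligand.

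After ZEB1 knockdown the members split. TCF7, MYC, ZNRF3, NKD1, RNF43, LEF1 and the barely detected LGR5 were lower, ASCL2 was higher from a low level, and AXIN2 and SP5 were not called. At an adjusted p-value under 0.05, 7 of the 10 members fell and 1 rose (two-sided quasi-likelihood test of edgeR, Benjamini-Hochberg adjustment over 14996 genes). Over all genes tested, 21.2% were called lower and 19.0% were called higher. LGR5 entered the test only through the siControl group, in which it was higher, and where at least 10 counts were required in every culture, LGR5 was not tested and 6 members were lower. The siZEB1 cultures all lay below the siControl cultures for the same 7 members, against 25.3% of all genes, and all above them for 2 members, AXIN2 and ASCL2, against 24.3% of all genes. The study names a 1.5-fold change with 2 different p-value thresholds before adjustment. At a p-value under 0.05, LGR5, TCF7 and MYC were lower (9.35% of all genes) and ASCL2 higher (7.21% of all genes). At a p-value under 0.001, TCF7 and MYC were lower (6.70% of all genes) and 0 members higher (4.52% of all genes), since LGR5 had an unadjusted p-value of 0.00114 and ASCL2 one of 0.00142 by edgeR. The median log2 fold change of the members was -0.34, beside -0.0055 over all genes tested, and the fold changes ran from -1.98 to 0.81.

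Each level below is in CPM, which are read counts scaled to the library size with TMM factors, and each change is the log2 of siZEB1 over siControl with its standard error (SE). Libraries held between 19040636 and 22357633 counted reads, and mitochondrial genes took 3.75% to 4.03% of them with siControl and 3.60% to 3.66% with siZEB1. This share separated the groups, and its part in the changes of the members was not tested. Depth was ample for 8 members, each with at least 589 reads in every culture, whereas LGR5 and ASCL2 rested on at most 19 and 106 reads. The knockdown target was checked first, and ZEB1 had 908 to 1276 reads in the siControl cultures and 132 to 162 in the siZEB1 cultures (log2 fold change -2.85, SE 0.11, adjusted p = 4.85e-12 by edgeR). Of 12 colorectal epithelial markers, 8 had at least 10 reads in every culture, while KRT20, CDH17, GPA33 and LGALS4 never exceeded 20 reads. Markers among them moved in opposite directions, EPCAM by 3.05, VIL1 by 2.34 and KRT19 by 1.62 on the log2 scale and CDX2 by -1.30 and HNF4A by -0.63. The summed level of the 12 markers was 4905 to 5525 CPM with siControl and 5394 to 6063 CPM with siZEB1. Most of it was KRT8 and KRT18, which were not called (adjusted p = 0.65 and 0.677 by edgeR), so the sum hides the moves of the others. The part of these markers in the changes of the members was not tested. The summed level of 6 fibroblast markers ranged from 13.45 to 14.99 CPM in the siControl libraries and from 13.32 to 15.26 CPM in the siZEB1 libraries, nearly all of it COL1A1 and PDGFRB. The 5 immune markers measured stayed under 1.5 CPM in sum and the 3 endothelial markers under 3 CPM in every culture, with CD68 and LUM at 0 or 1 read. DCN, PTPRC, CDH5 and KDR were not analysed here.

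Promoter sequence was examined because the members share a regulator, TCF/LEF with β-catenin, and because the knocked-down protein binds E-box sequences. RefSeq promoters on GRCh38.p14, running from 250 bases before to 50 bases after a transcript start, were matched for SP5, LEF1, TCF7 and RNF43, with 6 promoters in all, TCF7 and RNF43 having 2 each. No entry was matched for the other 6 members. Both strands were searched for CTTTGA, a form of the core of the TCF/LEF site, which reads TCAAAG on the other strand. They were also searched for the E-box word CAGGTG, which reads CACCTG on the other strand, and for its relative CAGGTA, which reads TACCTG there. ZEB1 is known to bind such words. Of all 35116 promoters of that table, 12.9% held CTTTGA, 20.6% CAGGTG and 9.83% CAGGTA. The SP5 promoter held CTTTGA 3 times and neither E-box form, and 0.0997% of the promoters held CTTTGA 3 or more times. Its matches are shown because SP5 is a member that was not called, and they are in capitals in the stretch from 170 to 61 bases before the start, on the plus strand at chr2:170715167-170715276:
SP5: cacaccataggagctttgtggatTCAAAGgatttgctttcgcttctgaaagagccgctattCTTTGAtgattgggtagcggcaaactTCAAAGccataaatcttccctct

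Among the members that fell, both TCF7 promoters held CAGGTG once and both RNF43 promoters held CAGGTA once, without CTTTGA, and the LEF1 promoter held none of the 3 words. No match overlapped another. The windows of 30 bases around the E-box words, in capitals, are shown for these falling members in the sense of the gene. They lie at chr5:134115616-134115645 and chr5:134123514-134123543 on the plus strand for TCF7, and at chr17:58417598-58417627 and chr17:58402793-58402822 on the minus strand for RNF43. A match describes the letters only and is not a measured binding site. Other forms of the TCF/LEF core were not searched, so the lack of CTTTGA does not show that a promoter lacks such a site.
TCF7 first start: tcccctcctgccCAGGTGactgactaatcc
TCF7 second start: gaggggcctgcaCAGGTGagagggggagaa
RNF43 first start: tcactttgtcagCAGGTAgagagcgtgatt
RNF43 second start: ctcaggtcttggCAGGTAaatcaaggaaga

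AXIN2 (ENSG00000168646, chromosome 17 from 65528563 to 65561647, minus strand) encodes the scaffold that rebuilds the destruction complex and is the usual marker of pathway activity. It was at 293, 306 and 291 CPM in the siControl cultures and at 321, 319 and 319 CPM in the siZEB1 cultures. The siZEB1 values all lay above the siControl values, by a narrow margin. The log2 fold change was 0.11 (SE 0.053, 95% interval -0.0044 to 0.22, adjusted p = 0.118 by edgeR), so that a fall of the size seen in the members below lay outside the interval. Exons of another gene on the same strand, AC004805.1, cover 25.2% of the exonic bases of AXIN2, and how shared reads were counted is not given in the sources used here.

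NKD1 (ENSG00000140807, chromosome 16 from 50548330 to 50649249, plus strand), the Dishevelled-binding antagonist, was the second most counted member in the siControl cultures. Its level was 433, 443 and 438 CPM with siControl and 342, 327 and 338 CPM with siZEB1. The groups were far apart relative to their spread, and the level changed by -23.4% (log2 fold change -0.38, SE 0.052, adjusted p = 1.53e-05 by edgeR). The untranslated region (UTR) of NKD1 held the word GAACACA at 2 sites, and that of no other member held it. At 15468 bases, the UTR of NKD1 was by far the longest and so had the most room for a match. Those of the other members ran from 476 bases (MYC) to 3865 bases (ZNRF3). Of 12321 tested genes with a UTR, 1315 held this word. Among these holders 45.3% were lower with siZEB1, against 21.4% of the others. The word was chosen with earlier results of these data known, so this contrast is not independent of them. Holders and others were not matched for UTR length. The part of this word in the fall of NKD1 was not tested.

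The ubiquitin ligases RNF43 and ZNRF3, paralogs that clear Frizzled from the membrane, fell together. ZNRF3 (ENSG00000183579, chromosome 22 from 28883592 to 29057487, plus strand) was at 98.7, 94.3 and 91.2 CPM with siControl and at 68.8, 69.5 and 70.6 CPM with siZEB1, and fell by 0.44 on the log2 scale (SE 0.064, adjusted p = 3.16e-05 by edgeR). RNF43 (ENSG00000108375, chromosome 17 from 58352500 to 58417595, minus strand) was at 69.3, 74.1 and 77.8 CPM with siControl and at 59.0, 61.5 and 58.4 CPM with siZEB1. Its fall of 0.31 on the log2 scale (SE 0.068, adjusted p = 0.00174 by edgeR) left the groups separate. No other annotated gene overlaps the exons of ZNRF3. For RNF43, exons of AC004687.2 and SUPT4H1 on the same strand cover 59.5% of the exonic bases and exons of TSPOAP1-AS1 on the opposite strand 20.3%, so its count depends on how shared reads and strand were treated and is uncertain.

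LGR5 (ENSG00000139292, chromosome 12 from 71439770 to 71586310, plus strand) encodes the R-spondin receptor that marks intestinal stem cells and counters RNF43 and ZNRF3. Its siControl libraries held 18, 16 and 19 reads, and its siZEB1 libraries 1, 8 and 3. The groups did not overlap, but all siZEB1 cultures lay under the filter's cutoff of 0.518 CPM. Its log2 fold change was -1.98 with a wide 95% interval of -3.05 to -0.91 (SE 0.50, adjusted p = 0.00466 by edgeR). Without siZEB1 replicate 2, the culture with 8 reads, the log2 fold change was -2.93.

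**Figure D1:**
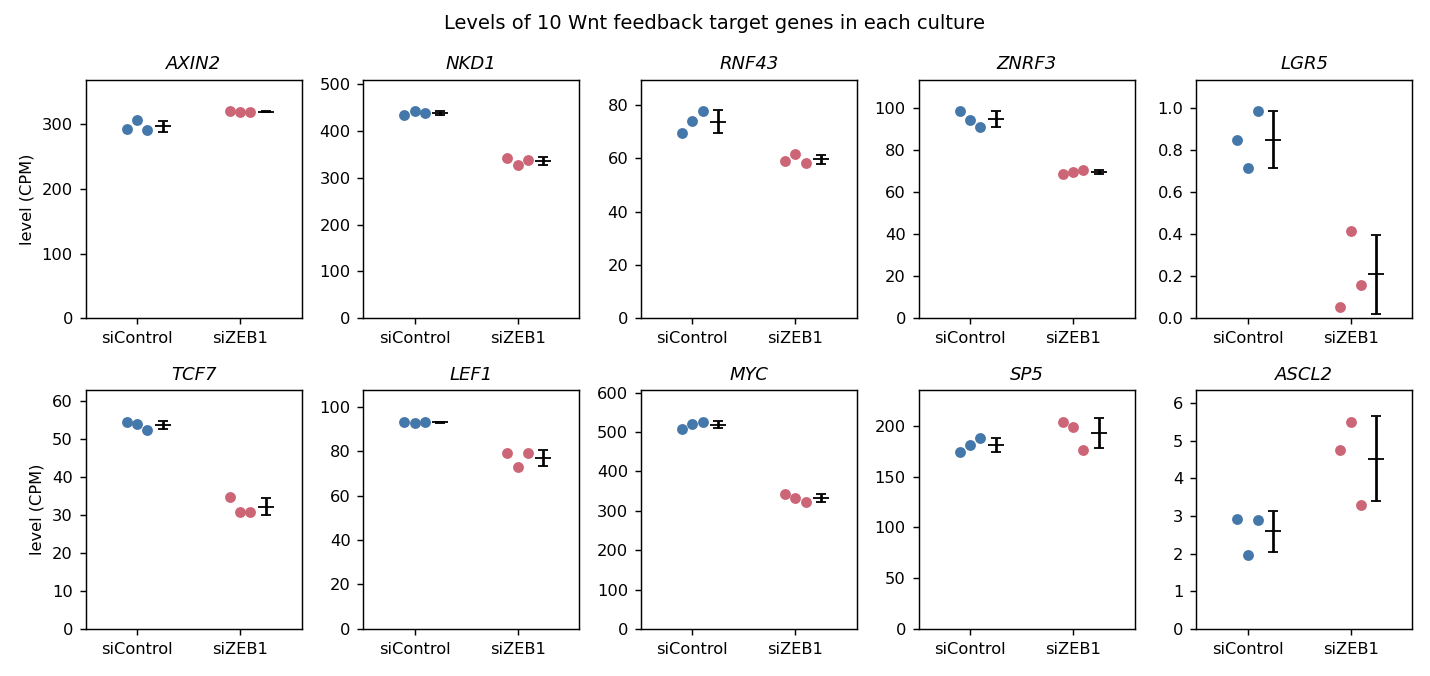
Levels in CPM (vertical axes, each starting at 0) of the 10 members in the 3 siControl and 3 siZEB1 cultures; dots are cultures, and the black marks beside them give the mean and SD. The cultures of 7 members lie wholly lower with siZEB1, AXIN2 and ASCL2 wholly higher, and the SP5 groups overlap.

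The DNA-binding partners of β-catenin, TCF7 and LEF1, belong to the same family and are themselves targets. TCF7 (ENSG00000081059, chromosome 5 from 134114711 to 134151865, plus strand) was at 54.5, 53.9 and 52.3 CPM with siControl and at 34.7, 30.8 and 30.8 CPM with siZEB1. With LGR5 left aside, this was the largest fall among the members, a change of -40.0% in level (log2 fold change -0.74, SE 0.074, adjusted p = 6.22e-07 by edgeR). LEF1 (ENSG00000138795, chromosome 4 from 108047545 to 108168956, minus strand) stood at 93.4, 92.8 and 93.1 CPM with siControl and at 79.1, 73.0 and 79.1 CPM with siZEB1. The siControl cultures nearly coincided, and the fall was small, 0.27 on the log2 scale (SE 0.064, adjusted p = 0.00252 by edgeR). The 95% intervals of the log2 fold change, -0.90 to -0.58 for TCF7 and -0.41 to -0.14 for LEF1, did not meet, although the difference between these genes was not itself tested. Exons of LEF1-AS1 on the opposite strand cover 5.2% of the exonic bases of LEF1, and exons of SKP1 2.1% of those of TCF7.

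MYC (ENSG00000136997, on chromosome 8, plus strand), the proto-oncogene that drives growth and ribosome production, was the most counted member in the siControl cultures. It stood at 508, 521 and 526 CPM with siControl and at 343, 333 and 321 CPM with siZEB1. The spread within each group was a small part of the gap between them, and the level changed by -35.9% (log2 fold change -0.64, SE 0.053, 95% interval -0.75 to -0.53, adjusted p = 5.47e-08 by edgeR). No exon of another annotated gene overlaps those of MYC.

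SP5 (ENSG00000204335, chromosome 2 from 170715351 to 170718078, plus strand) encodes a zinc-finger repressor that binds many Wnt target promoters. Its level was 175, 182 and 188 CPM with siControl and 204, 199 and 176 CPM with siZEB1. These ranges overlapped, and the log2 fold change of 0.092 (SE 0.065, 95% interval -0.046 to 0.23, adjusted p = 0.282 by edgeR) did not pass the test. ASCL2 (ENSG00000183734, chromosome 11 from 2268495 to 2270952, minus strand), the transcription factor of intestinal stem cells, was counted 62, 44 and 56 times in the siControl libraries and 90, 106 and 63 times after knockdown. In CPM, all siZEB1 cultures (4.77, 5.51 and 3.29) were above the siControl cultures (2.92, 1.96 and 2.91), though the lowest siZEB1 culture was close to them. ASCL2 rose by 0.81 on the log2 scale (SE 0.21, adjusted p = 0.00563 by edgeR).

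**Figure D2:**
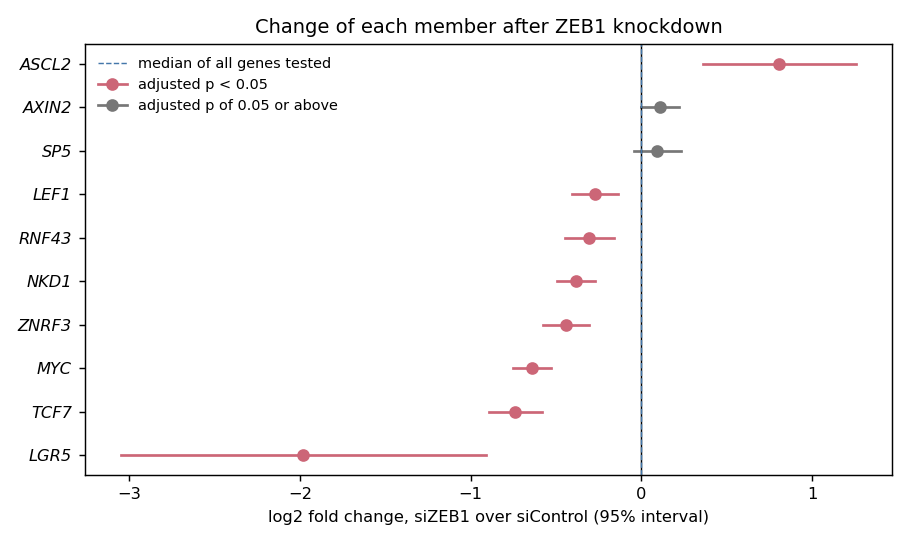
Log2 fold change of siZEB1 over siControl (horizontal axis) for the 10 members, with the 95% interval from edgeR as a line; red marks an adjusted p-value under 0.05 and gray the others, and the dashed line is the median of all genes tested, at -0.0055. Intervals of 7 members lie below 0, that of ASCL2 above it, and those of AXIN2 and SP5 include 0.

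To ask whether the members moved apart from the canonical marker, the reads of each were divided by the AXIN2 reads of the same culture, a ratio in which library scaling cancels out. For every AXIN2 read there were 1.74, 1.70 and 1.81 MYC reads in the siControl cultures and 1.07, 1.04 and 1.01 in the siZEB1 cultures. The NKD1 ratio went from 1.48, 1.44 and 1.51 to 1.07, 1.03 and 1.06, so that MYC and NKD1, well above AXIN2 in the controls, came close to it in reads. TCF7 stood at 0.186, 0.176 and 0.180 reads per AXIN2 read with siControl and at 0.108, 0.0966 and 0.0966 with siZEB1. The SP5 ratio did not separate the groups, at 0.596, 0.592 and 0.647 with siControl and 0.637, 0.624 and 0.553 with siZEB1. Of 9 such ratios, 7 lay wholly lower with siZEB1, against 35.0% of the ratios of all other tested genes to AXIN2, and 1, that of ASCL2, wholly higher, against 15.7%. AXIN2 itself was higher in all siZEB1 cultures, which lowers every ratio. For these an exact two-sided permutation test over the 3 and 3 cultures gave p = 0.1, the smallest value that this permutation test can give with 3 against 3 (adjusted p = 0.112 over the 9), so that it cannot pass 0.05. For SP5 the exact permutation p was 0.8.

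**Figure D3:**
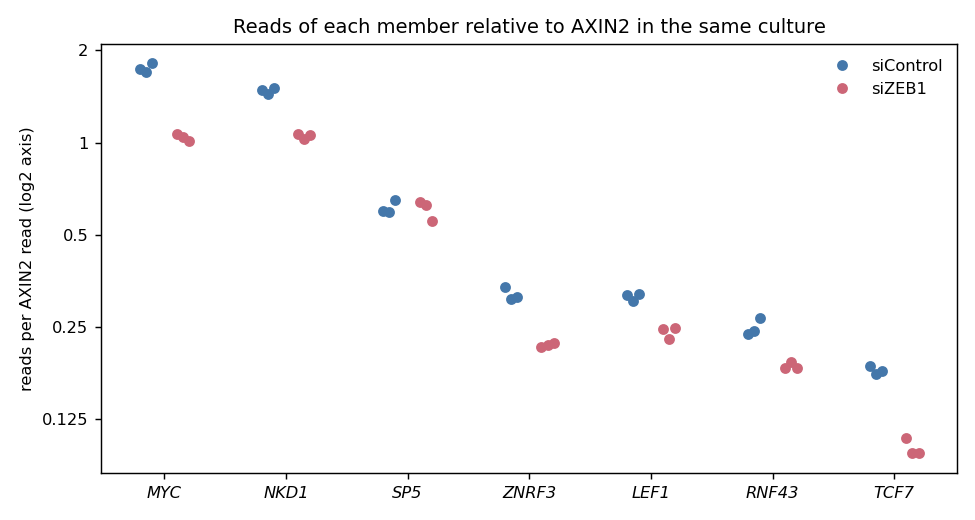
Reads of 7 members per read of AXIN2 in the same culture (vertical axis, log2 scale); dots are the 3 siControl (blue) and 3 siZEB1 (red) cultures. The ratios of MYC, NKD1, ZNRF3, LEF1, RNF43 and TCF7 lie lower with siZEB1 in every culture, and the SP5 ratios overlap.

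Levels of different genes were compared per kilobase of annotated exon. On this scale MYC was highest with siControl, at 173 ± 3.10 CPM per kb, followed by SP5 at 88.0 ± 3.27, AXIN2 at 56.8 ± 1.64 and NKD1 at 25.1 ± 0.273 CPM per kb (SD, n = 3 each). LEF1 (17.4 ± 0.0481), ZNRF3 (13.6 ± 0.539), RNF43 (9.82 ± 0.564) and TCF7 (5.32 ± 0.114 CPM per kb) came next. ASCL2, at 1.40 ± 0.295, and LGR5, at 0.162 ± 0.0258 CPM per kb, were far below, so the stem cell markers among the members were the least expressed. No neighbours in this order overlapped in their culture values, and with siZEB1 the order was the same. The places of 4 members in this order rest on the gene length used. With the longest transcript in place of all exons, LEF1 (26.8 CPM per kb) stood above NKD1 (25.6), and ZNRF3 (13.8) and RNF43 (13.2 CPM per kb) overlapped.

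**Figure D4:**
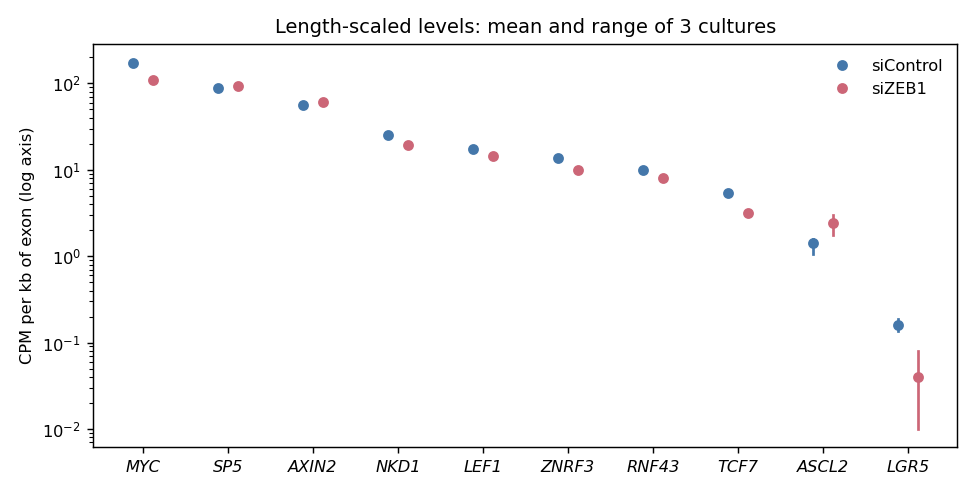
Length-scaled levels in CPM per kb of exon (vertical axis, log scale) of the 10 members, ordered by their siControl level; dots are means and lines the range over 3 cultures, in blue for siControl and red for siZEB1. The values span from 173 for MYC to 0.162 for LGR5 with siControl, and the siZEB1 order is the same.

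Among Wnt ligands and the proteins that release them, 14 of 25 listed genes were tested, 3 fell (21.4% against 21.2% of all genes) and 2 rose (14.3% against 19.0%), which is near the background. WNT11 fell from 5.73 ± 0.161 CPM with siControl to 2.52 ± 0.0625 CPM (SD, n = 3), PORCN, which attaches the lipid to Wnt proteins, fell by 0.78, and WLS, their carrier to the cell surface, fell by 0.47 on the log2 scale. WNT5B, a ligand known mainly for noncanonical signaling, rose by 0.55. The median log2 fold change of this list was 0.047.

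Of 20 receptors and Dishevelled proteins tested, 9 were called lower (45% against 21.2% of all genes) and 3 higher (15% against 19.0%), with a median of -0.21. LGR4, the R-spondin receptor related to LGR5, was counted 327, 312 and 238 times in the siControl libraries and 104, 103 and 113 times after knockdown, and it fell by 1.31 on the log2 scale (SE 0.12, adjusted p = 1.81e-07 by edgeR). The third receptor of that family, LGR6, was called lower as well (29.8 ± 0.760 against 23.0 ± 0.349 CPM, log2 fold change -0.38). The Frizzled receptors FZD10, FZD4 and FZD1 fell by 1.29, 1.08 and 0.89 on the log2 scale, whereas FZD7 and FZD6 rose by 0.35 and 0.26. LGR6, FZD7 and FZD6 were named after their values were seen.

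Of the inhibitors of the pathway, 12 of 22 listed genes were tested, and 8 fell (66.7% against 21.2% of all genes) while 1 rose (8.33% against 19.0%), with a median of -0.37. DACT3, 1 of the 8, passed the filter by its siControl levels alone, which were the higher ones. Its siZEB1 levels, 0.42 to 0.48 CPM, were all below the cutoff of 0.518 CPM. Under the filter of 10 counts in every culture, 7 inhibitors were lower. DACT3 was named after its values were seen. DACT1 and CXXC5, which act on Dishevelled, fell by 1.43 and 1.03 on the log2 scale. The secreted antagonists diverged: DKK4 fell by 0.66 and DKK1 rose from 12.5 ± 0.767 to 17.9 ± 1.55 CPM (log2 fold change 0.52, adjusted p = 0.000466 by edgeR). NOTUM and APCDD1, also inhibitors of this list, fell by 0.30 and 0.36 on the log2 scale, and were named after their values were seen. NKD2, the paralog of NKD1, fell by 0.28 on the log2 scale, from 50.7 ± 5.51 CPM in the siControl group to 41.9 ± 3.01 CPM (SD, n = 3, adjusted p = 0.0163 by edgeR). This call was lost without siControl replicate 3 (adjusted p = 0.0525) and without siZEB1 replicate 3 (adjusted p = 0.0716), within a range of 0.00378 to 0.0716 over the alternatives.

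Of 16 genes for β-catenin and its destruction complex, 4 were higher (25% against 19.0% of all genes) and 3 lower (18.8% against 21.2%), with a median of -0.020. CTNNB1, which encodes β-catenin, averaged 776 ± 36.5 CPM in the siControl and 849 ± 7.52 CPM in the siZEB1 group (SD, n = 3 each; log2 fold change 0.13, adjusted p = 0.052 by edgeR). It passed the threshold with median-of-ratios size factors (adjusted p = 0.0399) and with a filter of 10 counts in every culture (adjusted p = 0.0495), and its adjusted p-values ran from 0.0399 to 0.188 over the alternatives. AMER1, which brings the complex to the membrane, fell by 1.05 and BTRC, the F-box protein that recognises phosphorylated β-catenin, by 0.80 on the log2 scale. The scaffold AXIN1 rose by 0.43 and the kinase GSK3B by 0.56, each with no overlap between the groups. APC, whose groups overlapped, was called lower by 0.22 at an adjusted p-value of 0.0497 from edgeR, and 9 of 12 alternatives lost that call, with adjusted p-values from 0.000672 to 0.206.

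Of 16 nuclear partners tested, 6 fell (37.5% against 21.2% of all genes) and 3 rose (18.8% against 19.0%), with a median of -0.098. TLE5 and TLE4 fell by 0.84 and 0.69 and the acetyltransferase EP300 by 0.59 on the log2 scale. TCF7L2, the main TCF of the intestine, averaged 60.2 ± 4.17 CPM in the siControl and 59.7 ± 2.27 CPM in the siZEB1 group (SD, n = 3 each; log2 fold change -0.013, adjusted p = 0.905 by edgeR), and with 1 culture left out its sign turned in 3 of 6 cases. TCF7L1, often a repressor, rose by 0.53 (SE 0.11, adjusted p = 0.00103 by edgeR).

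Other genes known as β-catenin targets were compiled into a list of 36, of which 28 were tested. Among them 12 fell (42.9% against 21.2% of all genes) and 3 rose (10.7% against 19.0%), and the median was -0.20. MSX1, a homeobox factor, fell by 1.54 on the log2 scale, from 319 ± 25.8 CPM in the siControl group to 110 ± 4.36 CPM (SE 0.067, adjusted p = 2.05e-11 by edgeR). FGF18 fell by 2.23 and TNFRSF19, a receptor found on intestinal stem cells, by 1.23 on the log2 scale. The cell cycle gene CCND1 was the most counted of those named, with 1406 ± 60.4 CPM in the siControl and 961 ± 54.8 CPM in the siZEB1 group (SD, n = 3 each; log2 fold change -0.55, adjusted p = 4.83e-07 by edgeR). BIRC5, an inhibitor of apoptosis, went the other way, rising by 0.70, and CD44 did not pass the test (130 ± 1.09 and 136 ± 2.07 CPM, adjusted p = 0.436).

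Since MYC fell, its partners and target genes were read out as well. Of 11 genes of the MYC network, 3 fell (27.3% against 21.2% of all genes) and 2 rose (18.2% against 19.0%). MYCN, 1 of the 3, entered the test only through the siControl group, in which it was higher. All its siZEB1 levels, 0.16 to 0.42 CPM, lay under the filter's cutoff of 0.518 CPM. When every culture had to hold at least 10 counts, 2 genes of this network were lower. MYCN was named after its values were seen. MAX, the obligate partner of MYC, rose from 56.2 ± 1.49 to 73.0 ± 3.99 CPM (log2 fold change 0.38, adjusted p = 0.000295 by edgeR), and the antagonists MXI1 and MNT fell by 0.34 and 0.32 on the log2 scale. MYCL was called higher by 0.59 at 1.89 CPM with siControl, but 7 of 12 alternatives lost that call, with adjusted p-values from 0.0095 to 0.208. Of 17 textbook MYC targets, 5 rose (29.4% against 19.0% of all genes) and 2 fell (11.8% against 21.2%), and the median log2 fold change was 0.060. ODC1, the first enzyme of polyamine synthesis and a standard MYC target, rose from 696 ± 15.9 to 949 ± 13.7 CPM (log2 fold change 0.45, adjusted p = 1.41e-06 by edgeR). The chaperone HSPD1 and the transferrin receptor TFRC rose by 0.43 and 0.41, while MYBBP1A, a nucleolar protein, fell by 0.44.

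**Figure D5:**
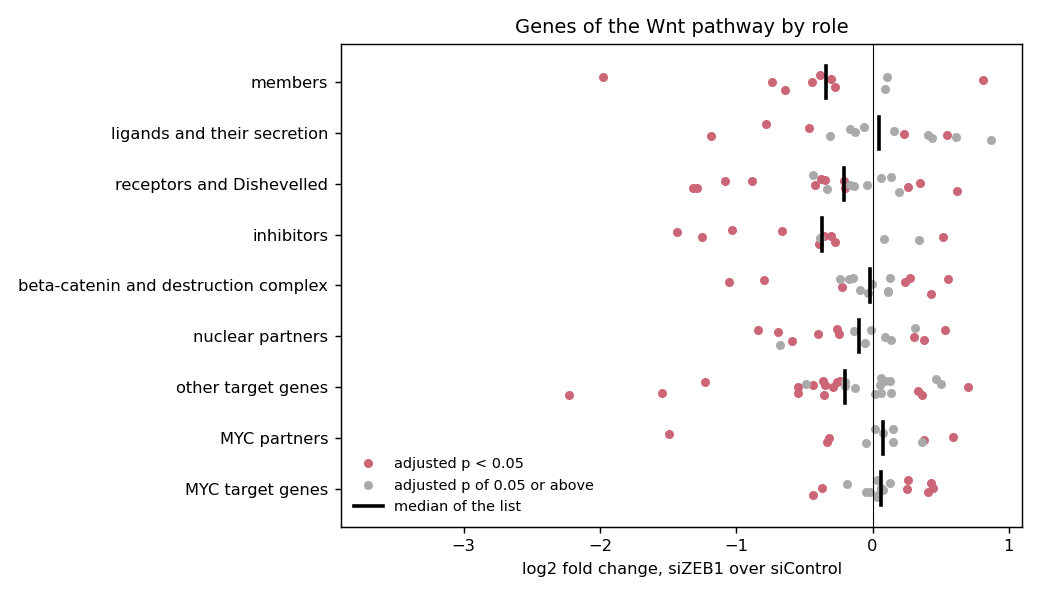
Log2 fold change of siZEB1 over siControl (horizontal axis) of each tested gene of 9 lists, with red dots for an adjusted p-value under 0.05, gray dots for the others and a black bar at the list's median. Medians of the members (-0.34), the receptors (-0.21), the inhibitors (-0.37) and the other target genes (-0.20) lie below 0. Those of the nuclear partners (-0.098) and the destruction complex (-0.020) lie slightly below 0, and those of the ligands and of both MYC lists slightly above it.

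Among 134 tested genes of these lists, the pattern nearest to AXIN2 over the 6 cultures was that of ETS2, at a root mean square distance of 0.023 on the log2 scale after centering each gene on its siControl mean, followed by CTNNB1 at 0.035. With this centering, a small distance mainly reflects a similar log2 fold change (0.11 for AXIN2, 0.14 for ETS2 and 0.13 for CTNNB1). Shared regulation was not tested. The nearest to NKD1 was LGR6 (0.026), to LEF1 it was TLE3 (0.043), to ZNRF3 it was WLS (0.042) and to RNF43 it was EPHB2 (0.055). TLE4 was the nearest gene to both TCF7 (0.042) and MYC (0.072). No close neighbour was found for the sparsely counted ASCL2 (WNT10A, 0.25) and LGR5 (FGF18, 0.83).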

How the data were processed

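RNA sequencing counts from 3 siControl and 3 siZEB1 cultures of SW480, described by the study as biological replicates, were analysed. The authors deposited whole-number read counts per Ensembl gene, not normalized, with 1 table per culture. The submitters' processing notes name Trimmomatic, HISAT2, SAMtools, featureCounts and hg38, without versions or roles, and the annotation and strand setting are not given in the sources used here, so reads in overlapping genes cannot be assigned with certainty.

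Genes were kept by edgeR's filterByExpr, scaled by TMM and compared with edgeR's quasi-likelihood test (edgeR 4.0.16, R 4.3.3), with 14996 genes tested and a threshold of 0.05 on the adjusted p-value. The script was tested on simulated data. Coordinates and exon lengths came from GENCODE 29 on GRCh38, in which 31059 of 32029 gene identifiers were found, and promoters from RefSeq. The members, lists, ratios and words searched were chosen with earlier results of these data known. Named genes were the members, ZEB1, 10 genes fixed by name, and up to 4 called genes of each list with the largest change, non-overlapping groups and a mean level not under 1 CPM, plus, for AXIN2 and each called member, the 2 nearest genes by pattern. DESeq2 1.42.0, other size factors, other filters, the replicate number as a block and each culture left out in turn were the alternatives, and the p-value threshold of 0.001 was added after seeing the data. The values of 1 marker gene are not reported here.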

Additional observations from a re-analysis of the deposited data

How the results depend on the processing

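The 7 falls, the rise of ASCL2 and the absence of a call for AXIN2 and SP5 were the same under all 12 alternative fits, except that LGR5 was not tested when 10 counts were required in every culture, which left 6 members lower. Under a fold change above 1.5 with an unadjusted p-value under 0.05, the counts of higher and lower genes were 1081 and 1402 over all genes (2849 and 3186 in the main test). Of the members 3 were lower. With the p-value under 0.001, a threshold added after seeing the data, the counts were 678 and 1004 over all genes and 0 and 2 over the members. The threshold of 0.05 called 7.21% of all genes higher and 9.35% lower. It gave 1 higher and 2 lower of 14 ligand genes and 1 higher and 4 lower of 20 receptors. Of 12 inhibitors 0 were higher and 4 lower, and of 16 genes of the destruction complex 0 were higher and 2 lower. Of 16 nuclear partners 0 were higher and 4 lower, and of 28 other targets 1 was higher and 3 lower. Of 11 MYC partners 1 was higher and 1 lower, and of 17 MYC targets 0 moved either way. With 1 culture left out, the members stayed at 7 lower and 1 higher, all genes ran from 2305 to 2928 higher and from 2637 to 3311 lower, higher ligand genes from 1 to 3, lower genes of the destruction complex from 2 to 5 (5 without siControl replicate 3) and higher MYC partners from 1 to 3. The TCF7L2 log2 fold change ran from -0.071 to 0.017 and was 0.017 without siControl replicate 1, 0.012 without siControl replicate 2 and 0.010 without siZEB1 replicate 2. DESeq2's Wald test called 1 MYC partner higher.

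The replicate numbers did not pair the cultures: same-numbered cultures had correlations of their deviations of -0.107, -0.147 and -0.339. With the replicate number as a block, 1 ligand gene and 1 MYC partner were higher, and 4968 genes were called in all against 6035 without it, with no change among the members.

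Values for LGR5, ASCL2, MYCN and DACT3 are limited by depth, and those for RNF43 and AXIN2 by shared exons.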
